A study of Mus musculus with 6 samples.

Results

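Small nucleolar RNAs (snoRNAs) and small Cajal body RNAs (scaRNAs) were followed in keratinocytes captured from the migrating edge of mouse skin wounds. The members were the array probe sets annotated with exactly 1 gene symbol that begins with Snord, Snora or Scarna. There were 60 such probe sets for 54 genes, of 21789 probe sets with 1 symbol and 35556 in all. Box C/D genes (Snord) had 33 probe sets for 31 genes, box H/ACA genes (Snora) had 23 for 20 genes, and the Cajal body class (Scarna) had 4 for 3 genes. Scarna17, Snora30 and Snord118 each had a pair of probe sets with identical values on all arrays, so each pair is a single measurement.

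The diabetic group consisted of 3 arrays from mice that began a diet high in fat and fructose at 8 weeks of age and stayed on it for 16 weeks. The normal group consisted of 3 arrays from mice kept on a control diet over the same time. Skin wounds of both groups were collected on day 3, and the leading keratinocytes of the regrowing epithelium, recognised by E-cadherin staining, were taken by laser capture and pooled over the sections of a sample. The labels name no strain, sex or genotype, and they define the diabetic state by diet alone. Every value below is a log2 probe set signal, differences are diabetic minus normal, and n = 3 arrays per group.

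SnoRNAs are short nuclear RNAs that act inside protein complexes. Box C/D RNAs pair with ribosomal RNA and direct fibrillarin to methylate it, while box H/ACA RNAs direct dyskerin to turn uridine into pseudouridine, and a few of both kinds serve cleavage of the ribosomal RNA precursor instead of its modification. The scaRNAs guide the same reactions on spliceosomal RNAs in Cajal bodies, and most mammalian snoRNAs are cut from introns of host genes, many of which encode ribosomal proteins or nucleolar factors.

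The arrays were dim, and a background limit was set on each at the 95th percentile of 1210 probe sets for olfactory and vomeronasal receptors. This limit lay at 1.98, 2.00 and 2.10 on diabetic arrays and at 2.10, 2.10 and 2.11 on normal arrays, numbered as replicates 1 to 3. The share of all single-symbol probe sets above it was 34.8%, 36.2% and 29.5% on diabetic arrays, against 27.7%, 28.3% and 28.8% on normal arrays. Of the keratinocyte markers, Sfn alone of 10 exceeded the limit on all 6 arrays and Cdh1, the gene of E-cadherin, exceeded it on none. Summed keratinocyte marker signal spanned 19.3 to 20.02 on diabetic arrays and 20.4 to 21.6 on normal arrays. The 10 markers did not move together. A higher diabetic mean was seen for 3, Krt5 by 0.19, Krt14 by 0.23 and Krt17 by 0.06, and a lower one for the others. The limit was exceeded on no array by 4 of the 10. Skeletal muscle markers, of which Acta1, Ckm, Mylpf and Tnni2 exceeded the limit on all arrays, summed to 18.9 to 20.6 on diabetic arrays and 17.9 to 18.6 on normal arrays. Fibroblast markers summed to 13.8 to 14.4 on diabetic arrays and 13.3 to 13.7 on normal arrays, with 3 of 6 above the limit throughout, while none of 8 macrophage and neutrophil markers was. The part of these shifts in the results below was not tested, and in bulk samples fewer cells of a type and less RNA per cell cannot be told apart.

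No snoRNA or scaRNA passed the adjusted test. The differences were positive for 30 probe sets and negative for 30, with a median of -0.00017 beside -0.0056 over all probe sets. Of the 31 members under the background limit on every array, 10 were positive and 21 negative (32.3% positive, beside 41.1% of all such probe sets). The 17 above it on all arrays had 9 positive and 8 negative (52.9%, beside 55.3%). The 12 above it on some arrays had 11 positive and 1 negative (91.7%, beside 56.7%), and as a probe set enters these 12 through the arrays on which it is high, nothing is read from that share. By limma with Benjamini-Hochberg adjustment over all 21789 probe sets, 0 members passed an adjusted p of 0.05, the smallest being 0.775, and 0% of all probe sets passed. At an unadjusted p under 0.05, 7 member probe sets of 6 genes had a higher mean in diabetic samples (11.7%, beside 2.61% of all probe sets). Another 6 probe sets of 6 genes had a lower mean (10%, beside 2.98% of all). An ordinary linear model without shared variance gave 3 higher members (beside 2.42% of all probe sets) and 5 lower (beside 2.78%) at the same threshold, and 0 after adjustment. On 8 member probe sets all diabetic arrays lay above all normal arrays (13.3%, beside 4.96% of all), and on 5 they lay below (8.33%, beside 5.74%). The SD of the differences was 0.43 over the members and 0.16 over all probe sets, and 0.29 over the 58 members other than the identical Snord118 probe sets. The median SD within a group was 0.16 over the members and 0.15 over all probe sets. These counts describe the list, which was not tested as one.

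**Figure D1:**
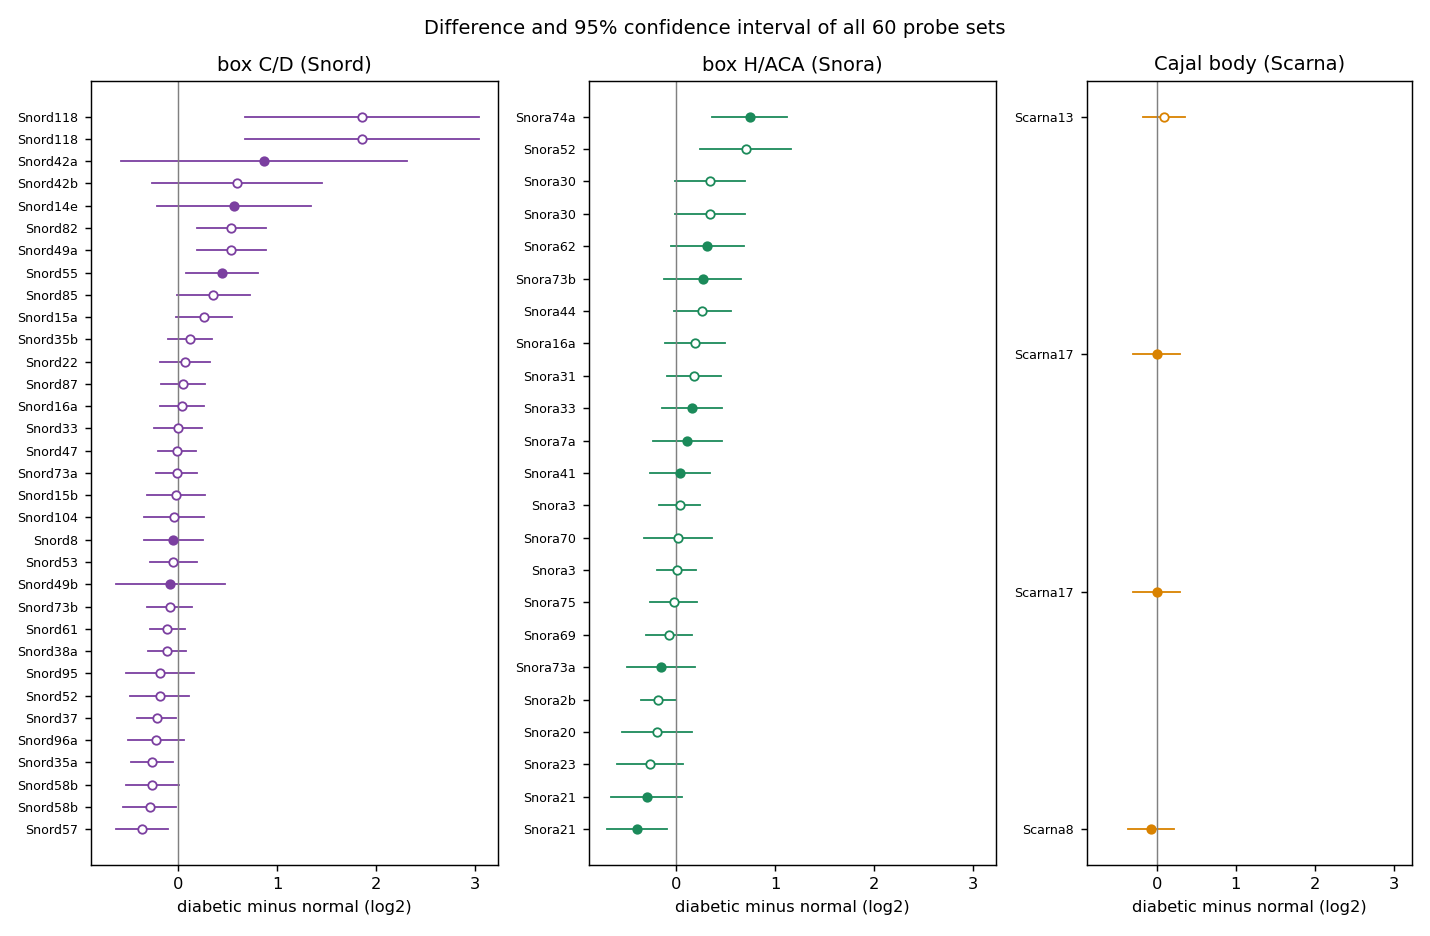
Difference of each member probe set, diabetic minus normal on the log2 scale (x), in 1 panel per class, with bars for limma's 95% intervals and filled points for probe sets above the background limit on all 6 arrays. Most bars cross 0, and the pair of identical Snord118 probe sets at 1.86 has the largest difference, with bars from 0.67 to 3.05.

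Of the members, 17 probe sets (28.3%) exceeded the background limit on all 6 arrays, beside 17.6% of all probe sets, and 31 (51.7%) exceeded it on none, beside 51.8%. By class, 5 of 33 box C/D, 9 of 23 box H/ACA and 3 of 4 Cajal body probe sets were above it throughout. Of the 6 members lower at the unadjusted threshold, 5 were under the limit on every array and Snora21 alone was above it on all. Over all probe sets, 396 of the 650 lower at that threshold were also under the limit on every array. Of the 7 members toward higher signal, 4 were under the limit on every normal array and exceeded it on diabetic arrays alone. The matching share of all probe sets is not given, so nothing is read from the 4. The 95% interval of the difference lay within a 2-fold change in either direction for 53 of 60 members (88.3%, beside 99.5% of all probe sets). These intervals cover the spread between these arrays, and no label states that the arrays of a group came from separate mice.

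Among the RNAs of ribosomal RNA precursor cleavage, Snord118 had the widest range. Snord118, or U8, is needed in vertebrates for maturation of the large-subunit ribosomal RNAs and is transcribed from its own promoter. Its signal was 4.52, 1.38 and 3.05 on diabetic arrays, against 1.21, 0.99 and 1.17 on normal arrays. All normal arrays and diabetic replicate 2 were under the background limit, and diabetic replicates 1 and 3 were above it. The mean difference was 1.86 (SE 0.54, unadjusted p = 0.0052, adjusted p = 0.775 by limma). Without diabetic replicate 2, the diabetic array under the limit, it was 2.66 with an adjusted p of 0.0429 by limma. Only 3 probe sets (0.0138% of all) passed adjustment there, and 2 of them were the identical Snord118 probe sets. Leaving out the lowest diabetic signal raises the difference in any case, so nothing is read from that pass. With any other array left out, the adjusted p of Snord118 was 0.672 to 0.935 by limma. Without diabetic replicate 1 the difference was 1.09. As the normal signals were all near background, no fold change is given.

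Snora62 (E2) and Snora73a and Snora73b (U17 or E1) take part in maturation of the small-subunit RNA in Xenopus oocytes. Snora62 read 4.77, 4.51 and 4.39 on diabetic arrays, against 4.33, 4.23 and 4.17 on normal arrays. The groups did not overlap, but the difference of 0.31 (SE 0.17, 95% interval -0.05 to 0.68) had an unadjusted p of 0.085 by limma and was 0.21 without diabetic replicate 1. Snora73b read 3.89, 3.69 and 3.55 on diabetic arrays and 3.31, 3.25 and 3.77 on normal arrays. Snora73a, which lies in the same host gene Snhg3, read 3.11, 3.38 and 3.03 on diabetic arrays and 3.17, 3.30 and 3.52 on normal arrays. The groups overlapped for both, and the differences of the pair had opposite signs, 0.26 for Snora73b and -0.16 for Snora73a, neither below an unadjusted p of 0.05. Leaving out 1 array at a time gave 0.17 to 0.43 for Snora73b and -0.26 to -0.063 for Snora73a.

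Snord14e, of the U14 family that acts in small-subunit RNA processing in yeast, read 4.15, 2.32 and 2.79 on diabetic arrays and 2.46, 2.30 and 2.82 on normal arrays. Diabetic replicate 1 alone stood apart, and the difference of 0.56 became 0.03 without it and 0.95 without diabetic replicate 2. Snord22 (U22), which serves the same step in Xenopus, was under the limit on all 6 arrays, at 1.81, 1.57 and 1.60 on diabetic arrays and 1.49, 1.58 and 1.72 on normal arrays. U3, U13 and Snora63 were not among the single-symbol probe sets and are not analysed here.

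Snora74a, a box H/ACA RNA known in human as U19 and carried by the noncoding host Snhg4, had the smallest p of all members. It read 4.47, 4.004 and 3.92 on diabetic arrays, against 3.36, 3.45 and 3.36 on normal arrays. Every diabetic array exceeded every normal array by a clear margin, and all 6 were above background. The mean difference was 0.74 (SE 0.18, 95% interval 0.36 to 1.13, unadjusted p = 0.0012), with an adjusted p of 0.775 by limma. Leaving out 1 array at a time gave 0.57 to 0.85.

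Snord55, a box C/D guide, was the other member above background on all arrays with a higher diabetic mean at the unadjusted threshold. It read 5.69, 5.67 and 5.70 on diabetic arrays, against 5.36, 5.11 and 5.27 on normal arrays. The diabetic arrays lay close together and above all normal arrays, with a difference of 0.44 (SE 0.17, 95% interval 0.07 to 0.80, adjusted p = 0.838 by limma).

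**Figure D2:**
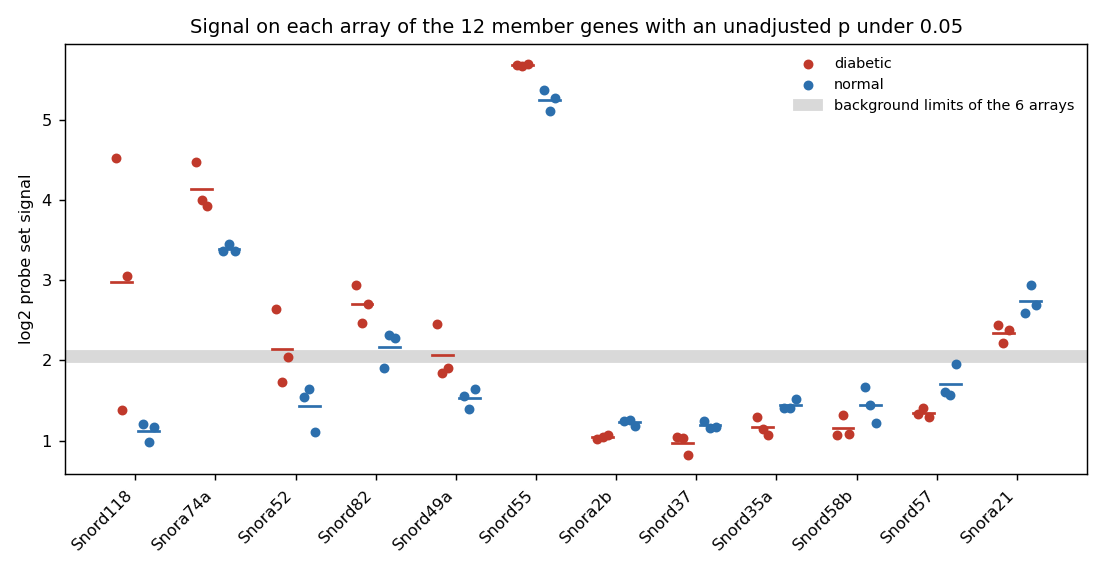
Log2 signal (y) on each array for the 12 member genes with an unadjusted p under 0.05, diabetic points left of normal points, with short lines at the group means and a grey band over the background limits of the 6 arrays. Snora74a and Snord55 lie above the band on all arrays without overlap, the normal points and 1 diabetic point of Snord118 lie under it, and of the lower members Snora21 alone lies above it.

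The other higher members lay closer to the background limit. Snord82, in the nucleolin gene Ncl, read 2.94, 2.46 and 2.71 on diabetic arrays, against 1.90, 2.31 and 2.28 on normal arrays, a difference of 0.54 (SE 0.16) without overlap. Snora52, in the ribosomal protein gene Rplp2, read 2.64, 1.73 and 2.04 on diabetic arrays, against 1.54, 1.65 and 1.11 on normal arrays, a difference of 0.70 (SE 0.21) that was 0.45 without diabetic replicate 1. Snord49a, in the noncoding host 2410006H16Rik, read 2.46, 1.85 and 1.91 on diabetic arrays, against 1.56, 1.40 and 1.65 on normal arrays, a difference of 0.54 (SE 0.16) that was 0.34 without diabetic replicate 1. For Snora52 and Snord49a diabetic replicate 1 alone exceeded the background limit. The adjusted p was 0.775 for each of these 3 by limma.

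Members with a lower diabetic mean at the unadjusted threshold differed by -0.40 to -0.18. Snora21, a box H/ACA RNA in Rpl23, read 2.44, 2.22 and 2.38 on diabetic arrays, against 2.59, 2.94 and 2.70 on normal arrays. The groups did not overlap on that probe set, with a difference of -0.40 (SE 0.14, adjusted p = 0.803 by limma). Its second probe set differed by -0.30, with overlap and an unadjusted p of 0.095, and by -0.13 without normal replicate 2. The remaining 5 were under the limit on every array. Snord57, in the gene of the box C/D core protein Nop56, averaged 1.34 ± 0.06 in diabetic samples and 1.71 ± 0.21 in normal samples (SD, n = 3 each), a difference of -0.36. The differences were -0.27 for Snord35a (Rpl13a), -0.22 for Snord37 (Eef2), -0.29 for Snord58b (Rpl17) and -0.18 for Snora2b (Kansl2), and Snord58b was -0.18 without normal replicate 1. Signals at background carry no more than a bound on the RNA, so these values give no order of levels. By an exact permutation test of each of the 12 genes alone, two-sided, p was 0.1 for 11 and 0.2 for Snord58b, and 0.1 is the smallest p that 20 splits of 3 against 3 allow.

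**Figure D3:**
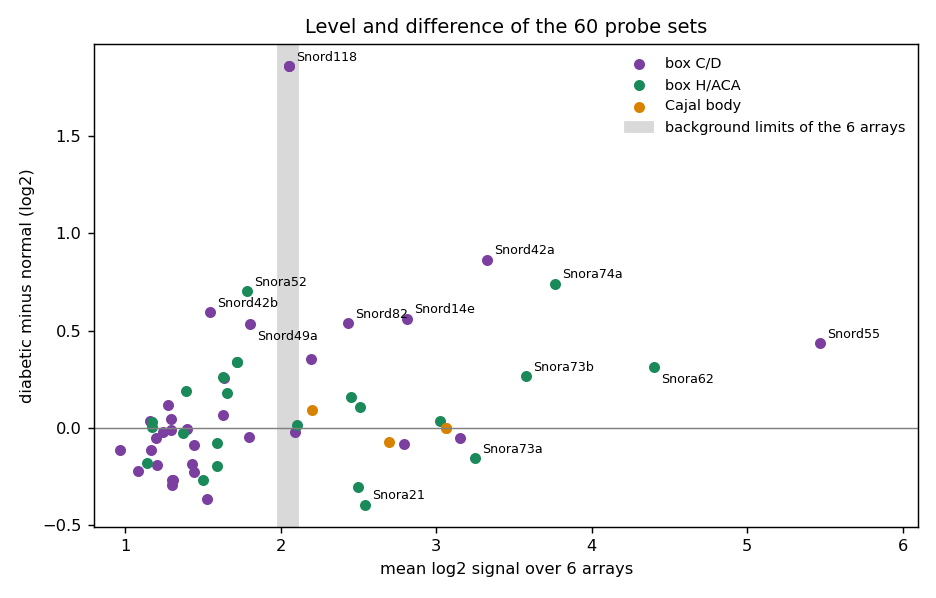
Mean log2 signal over the 6 arrays (x) against the difference, diabetic minus normal (y), for the 60 member probe sets, coloured by class, with a grey band over the background limits. Most differences under 0 lie left of the band, Snora21 at -0.40 being the lowest right of it, while Snora74a at 0.74 and Snord55 at 0.44 also lie right of it; names mark large differences or high signals.

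Several members above background on all arrays differed little in mean or were set apart by 1 array. Snord42a, in the ribosomal protein gene Rpl23a, read 5.71, 2.24 and 3.33 on diabetic arrays and 2.93, 3.60 and 2.16 on normal arrays. Its difference of 0.87 had a 95% interval from -0.58 to 2.31 and was -0.11 without diabetic replicate 1. Snord42b of the same host was above the limit on diabetic replicate 2 alone, at 3.09, so the neighbouring RNAs were high on different arrays. Snord49b, which shares its host with Snord49a, averaged 2.76 ± 0.57 in diabetic samples and 2.84 ± 0.30 in normal samples (SD, n = 3 each). Snord8, which guides methylation of the U6 spliceosomal RNA, averaged 3.13 ± 0.11 in diabetic samples and 3.18 ± 0.02 in normal samples. Snord85 was above the limit on 2 arrays, diabetic replicates 1 and 3, with a difference of 0.35. Dropping diabetic replicate 3 gave 0.22, and dropping diabetic replicate 2 gave 0.57. Snord15b (Rps3) was above it on 4 arrays, with a difference of -0.02. Differences were 0.04 for Snora41 (Eef1b2), 0.11 for Snora7a (Rpl32) and 0.16 for Snora33 (Rps12), each with overlapping groups.

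The Cajal body RNAs showed no difference beyond the array spread. Scarna17 averaged 3.06 ± 0.12 in diabetic samples and 3.07 ± 0.04 in normal samples (SD, n = 3 each), with a 95% interval of the difference from -0.30 to 0.30. Scarna8 averaged 2.66 ± 0.08 in diabetic samples and 2.73 ± 0.13 in normal samples, with an interval from -0.36 to 0.22. Scarna13 averaged 2.25 ± 0.07 in diabetic samples and 2.15 ± 0.13 in normal samples, with an interval from -0.18 to 0.36. Leaving out 1 array at a time gave -0.14 to -0.014 for Scarna8 and 0.037 to 0.17 for Scarna13.

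By class, the median difference of box C/D probe sets was -0.02, with 14 positive and 19 negative values, and 5 positive and 4 negative ones passed an unadjusted p of 0.05 (27.3% in all, beside 5.59% of all probe sets). Of these 33, 21 were under the background limit on every array, with 5 positive and 16 negative values. Over the 7 that exceeded it on at least 3 arrays the median was 0.44. That median rests on diabetic replicate 1. Without that array the differences of the 7 were 0.42 for Snord82, 0.44 for Snord55 and 0.03 for Snord14e. They were -0.03 for Snord8, -0.09 for Snord15b, -0.11 for Snord42a and -0.40 for Snord49b, so no shift of the class is read. The mean over all 33 was 0.17, opposite in sign to their median, with both Snord118 probe sets at 1.86. Box H/ACA probe sets had a median of 0.04 and a mean of 0.09, with 15 positive and 8 negative values, and 2 of each passed that threshold (17.4%). The 24 probe sets in ribosomal protein hosts had 2 higher and 3 lower (20.8%), and the 34 in other hosts had 3 of each (17.6%). MicroRNA genes, another class of short RNAs on the array, had 3 higher and 12 lower among 305 probe sets (4.92%).

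Diabetic replicate 1 held the highest signal of the 6 arrays for 20 of 60 member probe sets (33.3%), beside 13.4% of all probe sets. These were 12 box C/D and 8 box H/ACA probe sets, and none of the Cajal body class. The count of members above the background limit was 27, 22 and 23 on diabetic arrays, against 18, 19 and 20 on normal arrays. These are 45%, 36.7% and 38.3% of the members on diabetic arrays and 30%, 31.7% and 33.3% on normal arrays, beside 34.8%, 36.2% and 29.5% of all probe sets on diabetic arrays and 27.7%, 28.3% and 28.8% on normal arrays. The limit itself was lowest on diabetic replicates 1 and 2. Mean box C/D signal was 2.12, 1.73 and 1.84 on diabetic arrays, against 1.73, 1.73 and 1.73 on normal arrays. Mean box H/ACA signal was 2.24, 2.18 and 2.17 on diabetic arrays, against 2.01, 2.15 and 2.17 on normal arrays. For the members with a higher diabetic mean at the unadjusted threshold, the value without this array is given beside the difference where it changed by over 1.5 times.

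Of 54 member genes, 53 lay inside a host gene of the RefSeq mouse annotation, 21 of them inside a ribosomal protein gene, and Snord118 lay in none. Host genes with a terminal oligopyrimidine start, whose transcripts begin with a run of C and T in the gene, are known to carry many vertebrate snoRNAs. The start windows below, from 30 bases before each RefSeq start to 30 bases into the gene, are shown because their snoRNAs are described above. They are from RefSeq (GRCm38.p6), read 5′ to 3′ on the gene's strand, with capitals for the longest run of at least 6 letters that are all C or T.
Rplp2, host of Snora52, chr7:141447621-141447680, plus strand: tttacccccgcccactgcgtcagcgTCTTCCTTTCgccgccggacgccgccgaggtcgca
2410006H16Rik, host of Snord49a and Snord49b, chr11:62602847-62602906, plus strand: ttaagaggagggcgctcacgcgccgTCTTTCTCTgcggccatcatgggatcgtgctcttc
Eef2, host of Snord37, chr10:81176601-81176660, plus strand: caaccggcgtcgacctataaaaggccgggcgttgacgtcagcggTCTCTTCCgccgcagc
Rpl13a, host of Snord35a, chr7:45128716-45128775, minus strand: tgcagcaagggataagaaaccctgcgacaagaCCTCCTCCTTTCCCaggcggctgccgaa
Ncl, host of Snord82, chr1:86359426-86359485, minus strand: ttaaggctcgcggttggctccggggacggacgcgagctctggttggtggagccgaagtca
Nop56, host of Snord57, chr2:130274382-130274441, plus strand: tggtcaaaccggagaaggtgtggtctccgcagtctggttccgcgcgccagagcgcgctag
The hosts of the higher members Snora52 and Snord49a and of the lower members Snord37 and Snord35a had such a run. Ncl of the higher Snord82 and Nop56 of the lower Snord57 had none in this window. Of windows not printed, Rpl23, host of the lower Snora21, had a run from position 19. Kansl2, host of the lower Snora2b, had none. Of the 35 host windows read, 26 (74.3%) held such a run on the gene strand, beside 49.6% of 32851 windows of all genes on the gene strand and 53.9% on the other strand. A run was counted wherever it lay in the window, as from position -28 for Rps3, so these shares are not shares of terminal oligopyrimidine starts. A run is a description of the letters, not a mapped transcript start.

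Most pairs of a snoRNA and its host could not be compared in sign, because one or both were at background. Of 46 host genes, 26 had a single-symbol probe set, and in 32 pairs of a member with its host's brightest probe set, 14 had differences of the same sign. In 22 of the 32 the member or the host exceeded the background limit on no array, so these signs carry no direction. In the other 10 pairs, 2 of them from Snora21, the sign was shared in 6, and nothing further is read from this count. It depends on the choice of the brightest probe set, as probe sets of 1 host differed in sign. Those of Rpl23a ranged from -0.29 to 0.23 and those of Rps12 from -0.079 to 1.09, the brightest being the highest in each. Every Rpl23a probe set but the brightest had a negative difference, and those of Rps12 had both signs. Of the 6 pairs of shared sign, those of Snord42a, Snord42b and Snora33 rest on these brightest probe sets. Nop56 read 3.16, 2.03 and 2.20 on diabetic arrays, against 1.43, 1.54 and 1.76 on normal arrays, a difference of 0.89 where Snord57 differed by -0.36. Snord57 was under the limit on all arrays and Nop56 on all normal arrays. Ncl read 1.77, 1.77 and 1.69 on diabetic arrays, against 1.93, 1.87 and 1.99 on normal arrays, a difference of -0.19 where Snord82 differed by 0.54. Ncl was under the limit on all arrays, so its sign against Snord82 is not read. Rplp2 read 3.40, 3.48 and 3.43 on diabetic arrays, against 3.07, 3.22 and 3.25 on normal arrays, a difference of 0.26 in the direction of Snora52. For Snord14e, the brightest probe set of its host Hspa8, a constitutive chaperone, read 6.64, 4.97 and 3.81 on diabetic arrays and 3.01, 4.84 and 2.36 on normal arrays, a difference of 1.73 with overlap. Both Hspa8 and Snord14e were highest on diabetic replicate 1. The brightest Rpsa probe set, host of Snora62, differed by 0.17 with overlap.

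**Figure D4:**
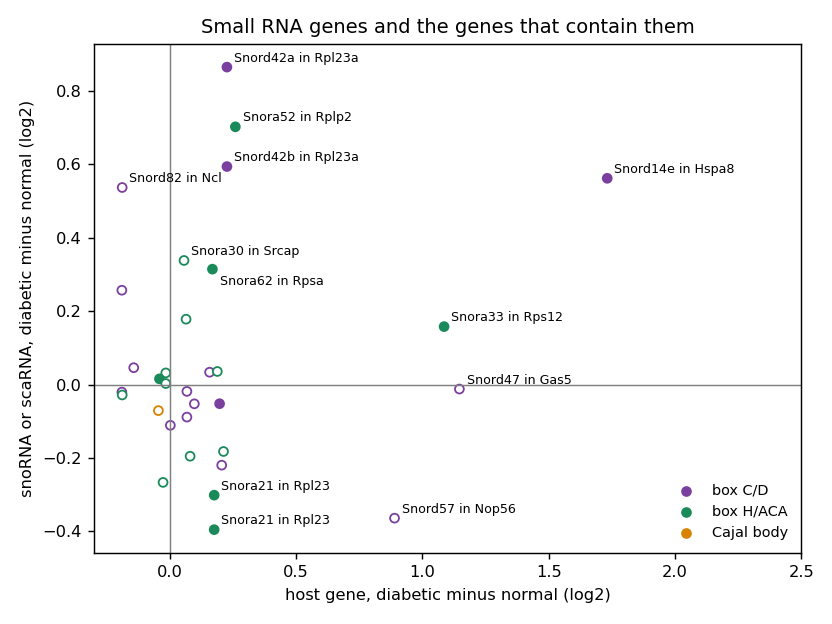
Difference of each member (y) against that of its host gene's brightest probe set (x), both diabetic minus normal on the log2 scale, for 32 pairs coloured by class, with filled points for the 10 pairs in which both exceeded the background limit on at least 1 array. The same sign is shared by 6 of the 10 filled points, and Snord57 with Nop56 and Snord82 with Ncl are among the 22 open ones.

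The proteins of the snoRNA complexes were followed as a list of 8 genes, all measured, with 12 probe sets. Differences were positive for 9 and negative for 3, at a median of 0.15, and 3 probe sets of Fbl and Nop56 had an unadjusted p under 0.05, all higher (25%, beside 2.61% of all probe sets). None passed the adjusted test. Fbl, fibrillarin, the methyltransferase of box C/D complexes, read 3.59, 3.92 and 3.81 on diabetic arrays, against 3.15, 3.31 and 3.15 on normal arrays. That probe set was above background throughout and without overlap, with a difference of 0.56 (SE 0.15, adjusted p = 0.775 by limma). Its other probe set read 2.33, 2.35 and 2.64 on diabetic arrays, against 1.97, 1.85 and 2.08 on normal arrays, a difference of 0.47. That second probe set was under the background limit on every normal array and above it on every diabetic array. Nop56, a scaffold of the same complexes whose array values are given above as a host, differed by 0.89 (SE 0.24), or 0.54 without diabetic replicate 1. Its partner Nop58 differed by -0.18, and the kink-turn binding protein Snu13 by 0.08 to 0.22 over 4 probe sets, with Nop58 and 3 of the Snu13 probe sets under the background limit on every array. The box H/ACA proteins differed by -0.08 for the pseudouridine synthase Dkc1, 0.16 for Nop10, 0.10 for Nhp2 and -0.10 for Gar1, none below an unadjusted p of 0.05, and Dkc1 and Nop10 were under the limit on every array. Leaving out 1 array moved Nop58, Dkc1, Nop10, Nhp2 and each Snu13 probe set by over 1.5 times, Nop58 to -0.11 without diabetic replicate 2.

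**Figure D5:**
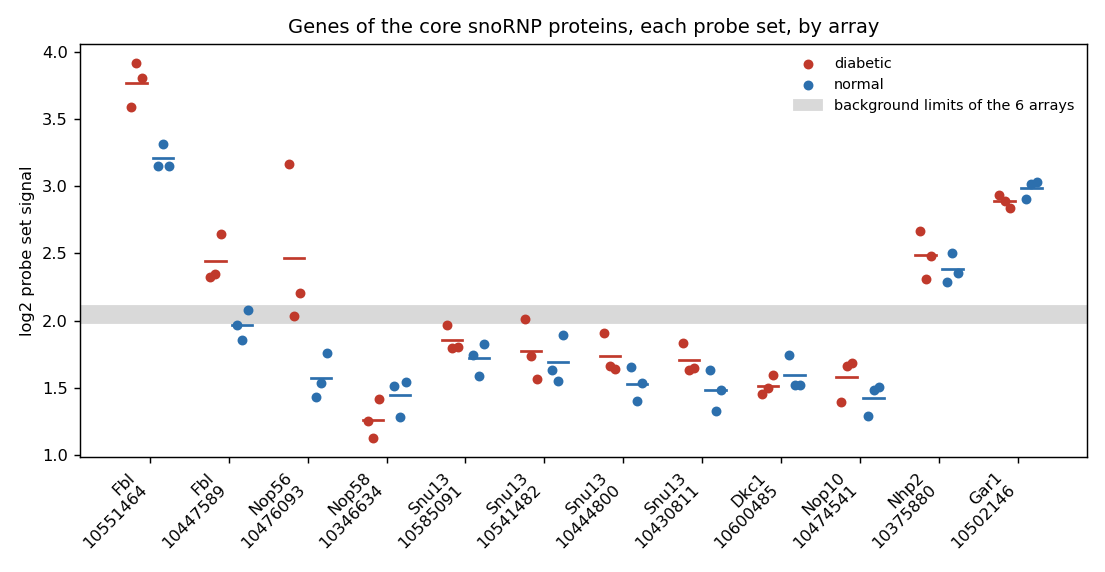
Log2 signal (y) on each array for each probe set of the 8 core protein genes, diabetic points left of normal points, with short lines at the group means and a grey band over the background limits. Both Fbl probe sets and Nop56 are higher on every diabetic array than on any normal array, and the points of the box H/ACA proteins Dkc1, Nop10, Nhp2 and Gar1 overlap between groups.

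Other lists of the pathway had at most 1 probe set at an unadjusted p under 0.05, a share near that of all probe sets. The share was 6.67% for assembly and transport, 0% for Cajal body and SMN genes, 5.26% for the U3 processome, 4.17% for RNA polymerase I and the nucleolus and 0% for noncoding hosts, beside 5.59% of all probe sets. Of 15 assembly and transport genes, Pih1d1, of the R2TP assembly complex, differed by 0.30 at an unadjusted p of 0.048, or 0.19 without normal replicate 3, and was the only one at that threshold, with 6 positive values, 9 negative and a median of -0.03. None of 7 Cajal body and SMN genes passed, with a median of -0.0057 and values from -0.16 for Wrap53, which brings RNAs to Cajal bodies, to 0.17 for Gemin4, which were -0.021 without normal replicate 1 and 0.098 without diabetic replicate 2. Of 19 genes of the U3 small-subunit processome, Nol6 was the only one at the unadjusted threshold. It averaged 2.45 ± 0.30 in diabetic samples and 2.02 ± 0.04 in normal samples (SD, n = 3 each), a difference of 0.43. The Nol6 difference was 0.27 without diabetic replicate 2. Both Pih1d1 and Nol6 were under the background limit on every normal array. Of 15 measured genes of RNA polymerase I and the nucleolus, with 24 probe sets, Taf1b, a subunit of the polymerase I selectivity factor, averaged 1.25 ± 0.14 in diabetic samples and 1.71 ± 0.26 in normal samples, at background throughout, and was the only one at that threshold, with a median of -0.07 over the probe sets. The catalytic subunit Polr1a differed by 0.22 and the shared subunit Polr1c by 0.30, neither below an unadjusted p of 0.05. Polr1a was 0.13 without diabetic replicate 1 and Polr1c was 0.17 without normal replicate 1. Of 17 noncoding host genes 4 were measured, with 7 probe sets and a median of -0.05. Gas5, a host of many box C/D RNAs, had a probe set at 4.71, 1.43 and 1.79 on diabetic arrays and 1.26, 1.79 and 1.45 on normal arrays, with diabetic replicate 1 alone above background and a difference of 1.15 that was 0.11 without it, and 3 further probe sets with differences of -0.20, -0.10 and -0.05. The adjusted p was 0.775 or above in each of these lists by limma.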

How the data were processed

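Total RNA of 6 samples was measured on whole-transcript arrays. A member's signal was not separated into the mature small RNA and any transcript of the host gene that contains it. The authors deposited already normalized log2 signals, 1 per probe set and array. The submitters' processing notes name Partek with no version; the steps of background correction and probe summary are not stated there. The base of the logarithm was taken from the range of the values. Close to background, a signal difference can be smaller than the RNA difference, and probe composition can move a probe set's signal, so signals were ranked only to choose probe sets, not to compare amounts of RNA between genes.

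Gene names came from the annotation of the array, 21789 with 1 symbol, 1621 with several and 12146 not listed in it. All 54 member genes matched the RefSeq mouse gene table (GRCm38.p6). Hosts were genes whose span contains the member, without regard to strand. The host genes of some members are not reported here. Titles speak of biological replicates but name no separate mice, so the p-values rest on spread among samples that may not come from separate mice.

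The diabetic group was set against the normal group in limma 3.58.1 (R 4.3.3) by lmFit and eBayes with intensity trend, group being the only term, over all 21789 single-symbol probe sets, with Benjamini-Hochberg adjustment. The number of arrays limits the precision. The fit was tested on simulated data. Named were the precursor-processing RNAs and core proteins whatever their values, the 8 brightest probe sets of each main class, all Scarna probe sets, members with an unadjusted p under 0.05, up to 3 genes of each list by p, and their hosts. The members and lists were chosen with earlier results of these data known. Alternatives covered scaling, variance model, array weights, probe set choice, a background filter, a replicate block and each array left out.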

Additional observations from a re-analysis of the deposited data

How the results depend on the processing

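Of 899 recomputed differences for 55 named probe sets, 880 kept their direction and side of the threshold. The adjusted test was newly passed by 1, and 18, in 8 probe sets, changed sign. Several alternatives changed only the variance model or the probe sets fitted, which leaves a difference as it was. No named probe set passed adjustment in the main fit either, so the 880 is no measure of stability. A kept direction can also hide a change in size, as for Snord14e, 0.56 here and 0.03 without diabetic replicate 1. The number of members past the adjusted test was 0 under every scaling, variance model, weighting, filter and probe set choice tried, and 0 to 2 with 1 array left out, the 2 being the identical Snord118 probe sets without diabetic replicate 2. The count higher at an unadjusted p under 0.05, 7 of 60 here, was 3 of 60 with the ordinary linear model. It was 7 to 11 of 60 with 1 array left out, the 11 without normal replicate 2. Among the 21 members above background on at least 3 arrays it was 3. The count lower, 6 of 60 here, was 3 with quantile normalization and 3 with arrays centred on their medians. It was also 3 without the intensity trend and 3 with every probe set in the fit. With 1 array left out it was 2 to 6 of 60, the 2 without diabetic replicate 3. Among the 21 members above background on at least 3 arrays it was 1. Apart from the ordinary linear model, the share of all probe sets by direction is not given for these settings. No change in the members is therefore read from these counts. Same-numbered arrays deviated from their group means with correlations of -0.028, -0.0029 and 0.015, beside -0.035 to 0.035 for differently numbered arrays. No pairing by number was seen, but 3 arrays per group cannot exclude it. With the replicate number as a block, 12 members were higher at an unadjusted p under 0.05, including all 7, and none passed adjustment. The share of all probe sets under the block is not given here, so nothing is read from the 12. The box C/D median was 0.17 as a mean, 0.029 after quantile normalization and 0.44 over the 7 probe sets above background on at least 3 arrays. Over all 33 it was -0.039 to 0.021 with 1 array left out.

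With 1 array left out, differences ranged from -0.011 to 0.13 for Snord22, -0.11 to 1.63 for Snord42a, -0.40 to 0.15 for Snord49b, -0.12 to 0.053 for Snord15b, -0.036 to 0.088 for Snora41, -0.061 to 0.24 for Snora7a, -0.051 to 0.065 for Scarna17 and -0.039 to 0.18 for 1 Snu13 probe set. Snora41 was -0.0023 after quantile normalization, and Scarna17 was 0.014 with arrays centred and 0.0037 with array weights. The cause of these changes was not tested. Counting each pair of identical probe sets once, an alternative chosen after seeing the data, left 6 higher and 6 lower.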

Other observations

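A further 41 probe sets carry several symbols with a snoRNA gene among them and were not part of the comparison. Among them, 24 list Snord116, a repeated box C/D family of an imprinted cluster, and no snoRNA gene of an imprinted cluster was among the members. Of these 41, 4 exceeded the background limit on every array and 32 on no array. Their differences spanned -0.54 to 2.43, and 3 positive and 3 negative ones passed an unadjusted p of 0.05 (14.6%, beside 5.54% of the 35556 probe sets in that fit), none of them after adjustment, by limma. They are left unnamed because their signal cannot be given to 1 gene.

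The probe sets whose signal followed Snora74a most closely over the 6 arrays belonged to Clu, Sec62, Fbln5, Pole and Olfr695, at a Pearson r of 0.992, 0.991, 0.989, 0.988 and 0.988. The arrays fall into 2 groups and no p is given, and 1 of the 5 is an olfactory receptor gene of the kind used to set the background.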
